A study of Mus musculus with 2 samples.

Results

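The cells described here carried transcripts of Il1rl1, which encodes ST2, the receptor for the alarm cytokine IL-33, together with transcripts of Hdc, Gata3 or both. They were chosen by that rule alone: 1 or more UMIs (unique molecular identifiers, each standing for 1 captured RNA molecule) of Il1rl1, 1 or more of Hdc or Gata3, and none of Foxp3, Cd8b1, C1qa or Lyz2. The rule found 246 cells among 17390, of which 134 were in the treated library and 112 in the untreated library. They are called ST2-positive cells below. The rule used the measured values of these genes, so their presence or absence in the cells is a description and not a finding.

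The study profiled T cells from a syngeneic mouse model of Nras-mutated melanoma by droplet single-cell RNA sequencing at day 5. The tumour line carries Nras Q61R and was exposed to ultraviolet light to add mutations. The treated library carries the label of trametinib, a MEK inhibitor, together with BGB-283, an inhibitor of RAF kinases, and the untreated library had neither. Each group is 1 library of 1 sample, so treatment cannot be told apart from library, animal or day of preparation, and no difference between the libraries was tested. Intervals are exact, at 95%, and allow for the counting of molecules alone. The labels give neither strain, age, sort gate nor number of animals pooled, and they name the tissue as the melanoma line and the cell type as T cells.

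IL-33 is released by damaged barrier and stromal cells, and ST2 with its partner chain Il1rap signals through MyD88 to NF-kB and MAP kinases. The receptor is found on group 2 innate lymphoid cells, T helper 2 cells, mast cells and tissue regulatory T cells. GATA3 is the transcription factor that opens the Il4, Il5 and Il13 locus, and HDC (histidine decarboxylase) makes histamine and is best known from mast cells and basophils.

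Il1rl1 has a distal and a proximal promoter, and both are shown with the Hdc promoter because Il1rl1 and Hdc define the cells and GATA factors bind the letters marked. Capitals mark NGATAN on either strand, where the first N is A or T and the last is A or G, and no marked matches overlap. Each window runs from 250 bases before to 50 after the start in RefSeq, build GRCm38.p6, and is written along the gene's strand.
Il1rl1 distal, chr1:40429320-40429619, plus strand: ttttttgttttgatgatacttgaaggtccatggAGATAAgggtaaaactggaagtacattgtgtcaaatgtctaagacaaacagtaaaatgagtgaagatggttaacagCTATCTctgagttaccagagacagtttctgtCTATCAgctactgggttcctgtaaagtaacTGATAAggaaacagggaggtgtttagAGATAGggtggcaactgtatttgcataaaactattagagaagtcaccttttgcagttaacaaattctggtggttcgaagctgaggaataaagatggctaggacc
Il1rl1 proximal, chr1:40439379-40439678, plus strand: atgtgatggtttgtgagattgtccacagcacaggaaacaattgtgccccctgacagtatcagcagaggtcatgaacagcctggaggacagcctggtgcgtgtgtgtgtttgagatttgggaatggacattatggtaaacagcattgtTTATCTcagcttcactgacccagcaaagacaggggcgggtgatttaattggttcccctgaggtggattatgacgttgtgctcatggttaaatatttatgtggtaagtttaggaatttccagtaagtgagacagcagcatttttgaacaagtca
Hdc, chr2:126618629-126618928, minus strand: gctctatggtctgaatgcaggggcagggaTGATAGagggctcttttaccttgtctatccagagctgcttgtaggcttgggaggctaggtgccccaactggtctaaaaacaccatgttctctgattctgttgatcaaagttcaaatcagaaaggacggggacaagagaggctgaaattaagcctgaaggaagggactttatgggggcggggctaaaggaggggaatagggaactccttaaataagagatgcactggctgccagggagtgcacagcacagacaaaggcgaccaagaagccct
The distal Il1rl1 window held 5 matches, and the proximal Il1rl1 window and the Hdc window held 1 each. Of 32851 windows of the same length, 9778 (29.8%) held at least 1 match and 18 (0.0548%) held 5 or more. A match is only these letters, and 3' counts cannot tell transcripts of the 2 Il1rl1 starts apart.

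The ST2-positive cells were 1.66% of the treated library (134 of 8078 cells, 1.39 to 1.96%) and 1.20% of the untreated library (112 of 9312, 0.991 to 1.45%). Of 471 treated and 417 untreated cells with Il1rl1, 206 treated and 164 untreated cells passed the exclusions. Another 72 treated and 52 untreated cells passed them but had neither Hdc nor Gata3, and 23 treated and 15 untreated cells were left out for 1 UMI of Foxp3 and nothing else. Just inside the rule, 30 treated and 67 untreated ST2-positive cells had a single UMI of Il1rl1, and Hdc or Gata3 rested on 1 UMI in 34 treated and 23 untreated cells. Gata3 alone brought in 82 treated and 87 untreated cells, Hdc alone 14 treated and 5 untreated cells, and both genes were present in 38 treated and 20 untreated cells. Membership therefore rests on few molecules per cell, at a median of 4569 UMIs per treated and 4415.5 per untreated ST2-positive cell. Of 35 cell barcodes that both libraries share, 1 belonged to a treated ST2-positive cell.

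Most ST2-positive cells were CD4 T cells by their transcripts. Cd3e, a chain of the T cell receptor complex, and Cd4 were both found in 82 treated cells (61.2% of the ST2-positive cells) and 68 untreated cells (60.7%). Cd3e without Cd4 was found in 28 treated and 26 untreated cells. Cd3e was not found in 24 treated (17.9%) and 18 untreated cells (16.1%), the cells the rule sets apart as innate lymphoid.

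The cells without Cd3e were not free of receptor transcripts. Counted over Cd3d, Cd3g, Cd247, Trac, Trbc1 and Trbc2, which encode the other chains of the complex, 20 of 24 treated cells (83.3%) and 18 of 18 untreated cells held at least 1 UMI. A count of 4 or more was reached by 14 treated and 16 untreated cells. The median was 7.5 UMIs in treated and 13 in untreated Cd3e-negative cells, against 18.5 in treated and 23 in untreated cells with Cd3e and Cd4. The Cd3e-negative cells were also shallower, with medians of 3599.5 UMIs in treated and 2998.5 in untreated cells, against 5117.5 in treated and 4911.5 in untreated cells with Cd3e and Cd4. After each cell was thinned to 2000 UMIs, 43.9% of 98 treated and 42.4% of 59 untreated ST2-positive cells had no Cd3e. These values go against the name innate lymphoid for most of these cells, and they are called Cd3e-negative here.

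The 4 treated cells with no receptor UMI at all held genes of mast cells. Their mast cell gene UMIs were 557, 132, 122 and 114 in cells of 1181 to 2677 UMIs in all. Cma1, the mast cell chymase, gave 227, 43, 52 and 43 of them and Cpa3, the mast cell carboxypeptidase, 60, 22, 21 and 31. All 4 had Hdc and none had Gata3. Another treated cell without Cd3e had 74410 UMIs and 7143 genes, with 2 receptor UMIs, and alone held 48.3% of the UMIs of its set. Together these 5 cells held 11.0% of all UMIs of the treated ST2-positive cells, and 82617 of the 154052 UMIs of the treated Cd3e-negative cells.

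**Figure D1:**
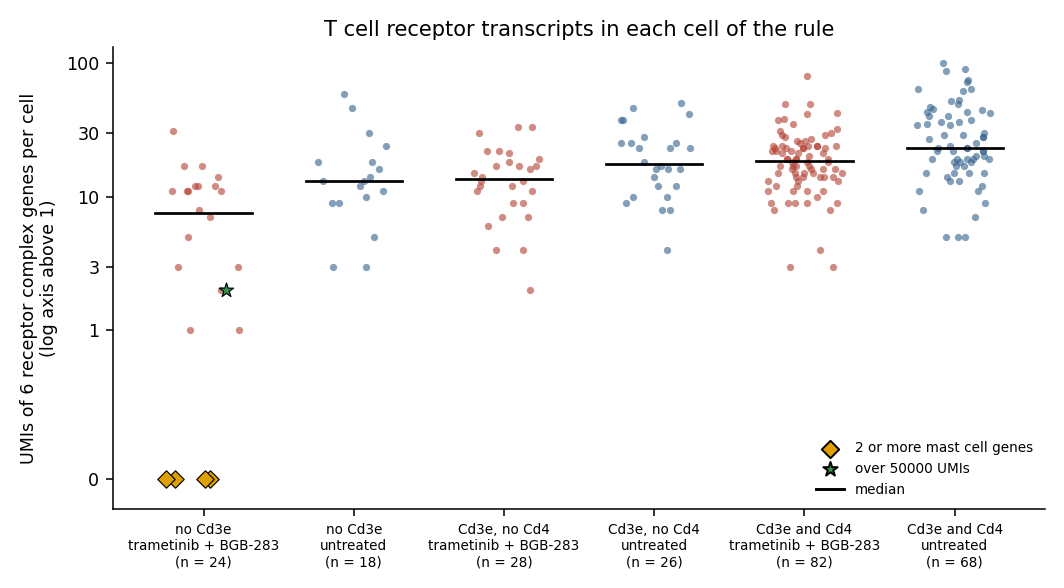
UMIs of 6 receptor complex genes in every ST2-positive cell, on a log axis above 1, by Cd3e and Cd4 status and library, with a black line at each median. The 4 cells with mast cell genes (diamonds) sit at 0 and the cell over 50000 UMIs (star) at 2, while the other Cd3e-negative cells reach 31 UMIs in the treated and 58 in the untreated library.

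Markers of other cells were uneven across the libraries. Of 8 mast cell genes in the table, 8 were found in treated ST2-positive cells (1573 CPM in sum, counts per 1000000 UMIs summed over the cells) and 2 in untreated ones (340.5 CPM), where Cpa3, Mcpt4, Cma1, Tpsb2, Fcer1a and Gata2 were at 0. In the cells with Cd3e and Cd4 the list stood at 326 CPM in treated and 269 CPM in untreated cells, with 2 of 8 genes found in both, Hdc among them. Stromal or tumour genes summed to 336 CPM in treated and 36.9 CPM in untreated ST2-positive cells. Of 10 macrophage genes, 4 were found in treated cells (38.7 CPM in sum) and 6 in untreated cells (52.7 CPM). Csf1r and Adgre1 were at 0 in both besides the C1qa and Lyz2 of the rule. Of 10 natural killer genes, 7 were found in treated cells (101 CPM) and 5 in untreated cells (107 CPM). Ncr1, Klrb1c and Gzma were at 0 in both. Gamma delta genes gave 1 UMI in treated and 0 in untreated cells, with Trdc at 0 in both. Of 10 dendritic cell genes, 7 were found in treated and 8 in untreated ST2-positive cells, Flt3, Xcr1, Fscn1 and Cd74 among them in both. Clec9a and Cd209a were at 0 in both. The dendritic cell genes summed to 1045 CPM in treated and 1529 CPM in untreated cells. At least 1 of them was found in 43.3% of treated and 57.1% of untreated cells. Of 6 B cell genes, 4 were found in treated cells (72.1 CPM in sum) and 3 in untreated cells (118 CPM), with Ms4a1 at 0 in both. CD8 T cell genes summed to 254 CPM in treated and 658 CPM in untreated ST2-positive cells, and to 355 CPM in treated and 881 CPM in untreated cells with Cd3e and Cd4, with the Cd8b1 of the rule at 0. Regulatory T cell genes summed to 1623 CPM in treated and 3331 CPM in untreated ST2-positive cells, with Foxp3, which the rule excludes, at 0. The part of these other cells' RNA in the results was not tested.

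Il1rl1 itself stood at 786 CPM (589 UMIs in 134 of 134 cells) in the treated library, against 356 CPM (203 UMIs in 112 of 112 cells) in the untreated library. The median was 3 UMIs per treated cell and 1 per untreated cell, so the treated cells lay deeper inside the rule. Gata3 went the other way and was at 520.4 CPM (390 UMIs in 120 of 134 cells) in the treated library, against 685 CPM (390 UMIs in 107 of 112 cells) in the untreated library. Since the rule asks for these genes, their levels describe the choice.

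Other genes of the type 2 state were found in anything from most ST2-positive cells to almost none. Rora, a nuclear receptor that innate lymphoid cells need, was found in 85.1% of treated and 87.5% of untreated ST2-positive cells. Il7r, the IL-7 receptor chain, was found in 76.1% of treated and 85.7% of untreated cells. Pparg, the lipid-sensing factor that type 2 T cells use, was at 93.4 CPM (70 UMIs in 42 of 134 cells) in the treated library, against 112 CPM (64 UMIs in 35 of 112 cells) in the untreated library. Among Foxp3-negative CD4 T cells without Il1rl1, called other CD4 T cells, Pparg was found in 6.40% of 344 treated and 4.50% of 689 untreated cells. At least 1 of 14 innate lymphoid genes, Rora and Il7r among them, was found in 98.8% of treated and 99.0% of untreated other CD4 T cells. Ltb4r1, the leukotriene B4 receptor, was found in 43.3% of treated and 60.7% of untreated ST2-positive cells, against 6.40% of treated and 6.39% of untreated other CD4 T cells. It was also frequent in Foxp3-positive T cells with Il1rl1, at 43.4% of 106 treated and 44.1% of 59 untreated cells. Tbx21, the factor of the T helper 1 programme, had 6 UMIs in treated and 2 in untreated cells. Il17rb, the IL-25 receptor chain, had 0 UMIs in treated and 2 in untreated cells. Ikzf2, a factor common in regulatory T cells, was found in 35 treated and 27 untreated ST2-positive cells despite the Foxp3 rule.

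**Figure D2:**
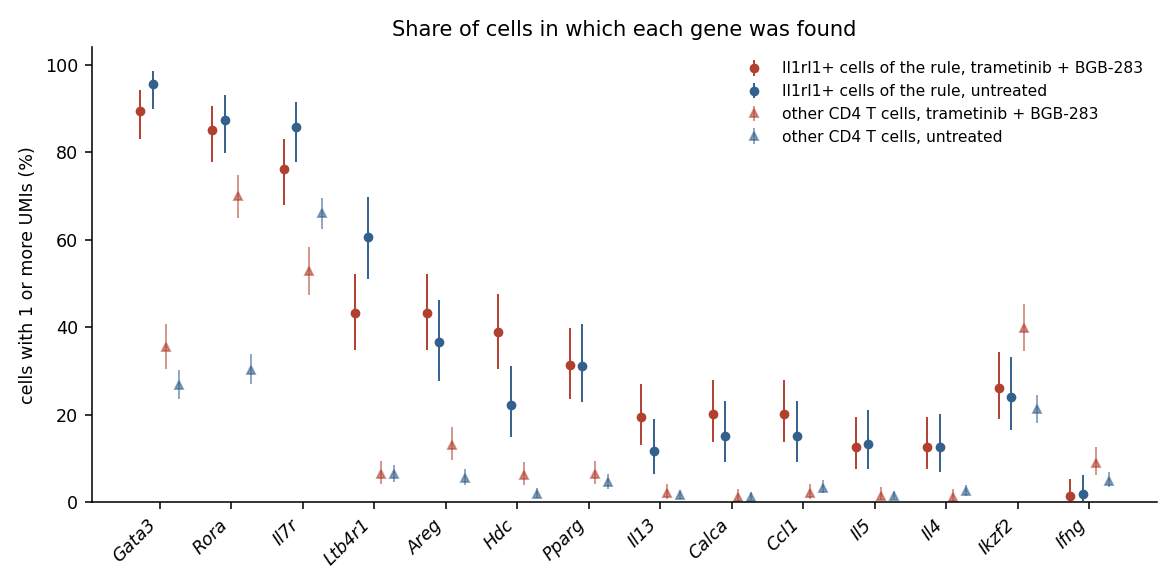
Percent of cells with 1 or more UMIs of each gene in ST2-positive cells (circles) and other CD4 T cells (triangles), treated in red and untreated in blue, with exact 95% intervals. Hdc is in 38.8% of treated and 22.3% of untreated ST2-positive cells, while Ifng is near 0; Gata3 is high because the rule uses it.

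Hdc was at 318 CPM (238 UMIs in 52 of 134 cells) in the treated library, against 339 CPM (193 UMIs in 25 of 112 cells) in the untreated library. The shares lay closer once each cell was thinned to 2000 UMIs, with Hdc in 23.0% of treated and 20.2% of untreated ST2-positive cells, against 1.22% of treated and 1.05% of untreated other CD4 T cells. Since the rule uses Hdc, it was also read in cells chosen without it. Among Foxp3-negative cells with Il1rl1 and Gata3, 38 of 120 treated cells (31.7%) and 20 of 107 untreated cells (18.7%) had Hdc, and 18.6% of treated and 16.3% of untreated cells after thinning. Their Hdc level was 279 CPM in treated and 335 CPM in untreated cells. Among Foxp3-negative cells with Gata3 and no Il1rl1 the shares were 4.42% of 362 treated and 3.49% of 459 untreated cells, at 13.4 CPM in treated and 28.7 CPM in untreated cells. Among Foxp3-positive cells with Il1rl1 and Gata3 they were 5.41% of 74 treated and 4.26% of 47 untreated cells. In both libraries Hdc was thus found more often where Il1rl1 and Gata3 were present without Foxp3 than in either of the other sets. Cells with Cd8b1, which should lack the type 2 programme, set the background: Hdc was found in 1.77% of treated and 0.893% of untreated ones, Il13 in 0.342% of treated and 0.420% of untreated ones, Areg in 4.17% of treated and 2.42% of untreated ones and Ltb4r1 in 2.93% of treated and 3.28% of untreated ones, at median depths of 6534 UMIs in treated and 6655 in untreated cells. Hnmt, which breaks histamine down, had no UMI in ST2-positive cells.

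Type 2 cytokines were carried by a minority. Any of Il4, Il5 and Il13 was found in 41 of 134 treated cells (30.6%), against 32 of 112 untreated cells (28.6%). The shares were 3.20% in treated and 4.50% in untreated other CD4 T cells, and 1.89% in treated and 8.47% in untreated Foxp3-positive cells with Il1rl1. The cytokine-positive cells were thus about as frequent in both libraries, and their intervals (22.9 to 39.1% treated, 20.4 to 37.9% untreated) overlapped almost whole. In the cells with Cd3e and Cd4 the count was 25 of 82 treated cells (30.5%), against 24 of 68 untreated cells (35.3%). In the Cd3e-negative cells it was 4 of 24 treated cells (16.7%), against 3 of 18 untreated cells (16.7%).

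Single untreated cells carried much of Il13, Il5 and Csf2. Il13, which drives goblet cells and alternative macrophages, gave 82 UMIs in 26 treated cells, against 121 UMIs in 13 untreated cells, with 16 UMIs in the highest treated and 56 in the highest untreated cell. Il5, the eosinophil growth factor, gave 41 UMIs in 17 treated cells, against 60 UMIs in 15 untreated cells, with 7 UMIs in the highest treated and 23 in the highest untreated cell. Il4, the growth and switch factor of T helper 2 cells, was spread thinly and gave 29 UMIs in 17 treated cells, against 16 UMIs in 14 untreated cells. Il13 was found with Il5 in 7 treated and 5 untreated cells and with Il4 in 10 treated and 4 untreated cells. Csf2, which encodes GM-CSF, gave 30 UMIs in 8 treated cells, against 145 UMIs in 5 untreated cells, but 138 of the untreated UMIs came from 1 cell. Penk, the enkephalin precursor, gave 114 UMIs in 4 treated cells, against 198 UMIs in 4 untreated cells, so that its level rests on 4 cells in each library. Ifng gave 2 UMIs in 2 treated cells, against 13 UMIs in 2 untreated cells, and Il10 gave 3 UMIs in 1 treated cell, against 7 UMIs in 3 untreated cells.

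Products beyond the classical cytokines were found in as many ST2-positive cells as Il13 or more. Areg, the epidermal growth factor receptor ligand of tissue repair, was found in 58 treated cells (43.3%) with 800 UMIs, against 41 untreated cells (36.6%) with 245 UMIs. It was as frequent in Foxp3-positive T cells with Il1rl1, at 51.9% of 106 treated and 40.7% of 59 untreated cells. A single treated Cd3e-negative cell held 226 Areg UMIs, with 31 receptor UMIs and 8 of Gata3, and the highest untreated cell held 34. Calca, which encodes the neuropeptide CGRP, gave 121 UMIs in 27 treated cells, against 123 UMIs in 17 untreated cells. Ccl1, the ligand of the chemokine receptor CCR8, gave 114 UMIs in 27 treated cells, against 91 UMIs in 17 untreated cells. Areg and any of Il4, Il5 and Il13 were found together in 18 treated and 9 untreated cells, and Hdc and any of these cytokines in 18 treated and 10 untreated cells.

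**Figure D3:**
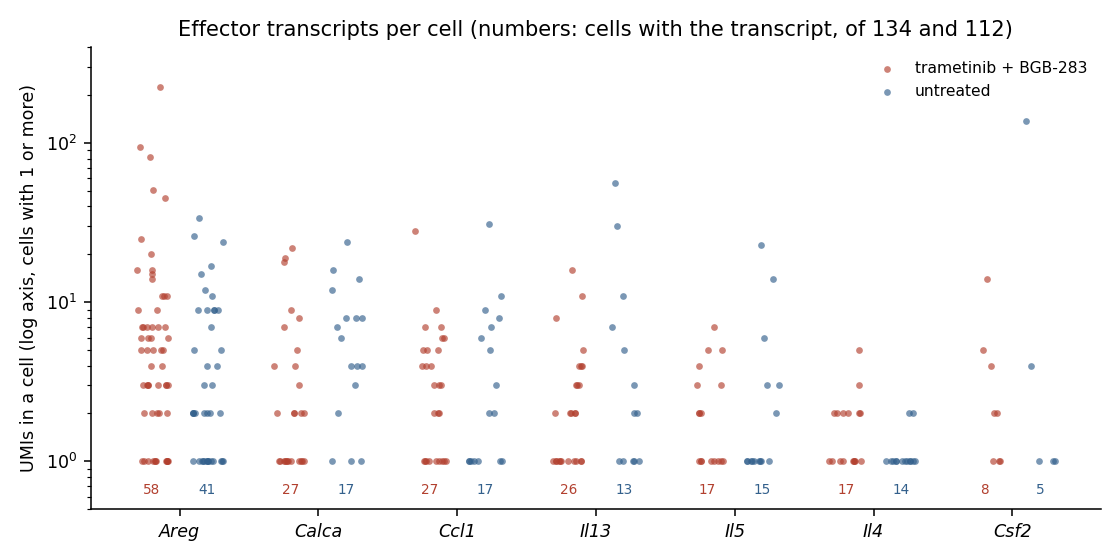
UMIs per cell, on a log axis, of 7 effector genes in the ST2-positive cells that had them, treated in red and left of untreated in blue, with the number of such cells under each column. A few cells sit far above the rest, at 226 UMIs of Areg in the treated library and at 138 UMIs of Csf2 and 56 of Il13 in the untreated library.

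Set against other CD4 T cells of the same library, 59 of 2221 genes (2.66%) were at least 2-fold higher in ST2-positive cells in both libraries and 14 (0.63%) at least 2-fold lower. Genes counted here had a mean of at least 50 CPM over the sets compared. Calca stood furthest, at 161 CPM against 6.81 CPM in other CD4 T cells of the treated library, a ratio of 23.7 (13.1 to 47.2), and at 216 CPM against 11.7 CPM in those of the untreated library, a ratio of 18.4 (12.7 to 27.2). The ratios of Ltb4r1 were 9.77 (6.85 to 14.2) in treated and 8.71 (6.84 to 11.1) in untreated cells. Areg followed with 4.74 in treated and 5.36 in untreated cells, Pparg with 6.33 in treated and 9.34 in untreated cells, and Ccl1 with 10.3 in treated and 4.14 in untreated cells. As given above, Areg was no less frequent in Foxp3-positive T cells with Il1rl1. Some of the strongest genes were not on a type 2 list: Hilpda, a lipid droplet protein induced by low oxygen, with 3.91 in treated and 7.64 in untreated cells, and Il10ra, the IL-10 receptor chain, with 7.11 in treated and 4.95 in untreated cells. Frmd4b reached 6.0 in treated and 4.82 in untreated cells.

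Among the genes lower in ST2-positive cells were those of naive and circulating T cells. Lef1, a factor of naive T cells, had ratios of 0.313 (0.218 to 0.438) in the treated and 0.205 (0.149 to 0.278) in the untreated library. Its partner Tcf7 had 0.435 in treated and 0.336 in untreated cells, Foxp1, which holds T cells quiescent, 0.416 in treated and 0.403 in untreated cells, and the costimulatory receptor Cd27 0.182 in treated and 0.418 in untreated cells. The list of 13 recirculation genes had 4 of 9 passing genes at least 2-fold lower and 1 higher in the treated library, and 9 of 12 lower and 1 higher in the untreated library. Of all genes, 4.14% were higher and 2.53% lower in the treated library, and 8.63% higher and 2.53% lower in the untreated library. The median log2 ratio of the list was -1.0 in the treated and -1.44 in the untreated library, where the medians over all genes were -0.03 and 0.08. NF-kB feedback genes, which IL-33 signalling induces, were at least 2-fold higher in 3 of 14 passing genes in the treated library (median 0.78) and in 11 of 14 in the untreated library (median 1.37), and lower in none. Type 2 cytokines and effectors were at least 2-fold higher in 6 of 7 passing genes in the treated and in 9 of 9 in the untreated library. The other CD4 T cells made up 4.26% of the treated and 7.40% of the untreated library. The median depth of other CD4 T cells was 4403 UMIs in treated and 4200 in untreated cells.

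Foxp3-positive T cells with Il1rl1 are another set of ST2-bearing cells of these libraries. They were chosen by Foxp3, Cd3e and Il1rl1, and Cd4 was not asked for. In both libraries 62 of 2343 genes (2.65%) were at least 2-fold higher in ST2-positive cells without Foxp3, and 54 (2.3%) at least 2-fold lower. Tnfsf8, which encodes CD30 ligand, was at 519 CPM against 21.1 CPM in Foxp3-positive cells of the treated library, a ratio of 24.6 (15.0 to 43.5), and at 437 CPM against 7.20 CPM in those of the untreated library, a ratio of 60.7 (23.4 to 224). Cxcr6, a homing receptor of tissue T cells, had ratios of 18.7 in treated and 20.8 in untreated cells. Tnfsf11, which encodes RANK ligand, had 8.65 in treated and 8.96 in untreated cells. Il13 had 82 UMIs against 0 in Foxp3-positive cells of the treated library, and 121 against 12 in those of the untreated library. The treated ratio was 27.7 with the 0 set to a floor of 3 UMIs. Tnfsf8 and Tnfsf11 are both ligands of the tumour necrosis factor family. Among lower genes, Klrg1, an inhibitory lectin of activated regulatory T cells, had ratios of 0.153 in treated and 0.187 in untreated cells, granzyme B (Gzmb) 0.194 in treated and 0.121 in untreated cells, and Ikzf2 0.0916 in treated and 0.248 in untreated cells. Klrg1 also belongs to the innate lymphoid genes counted above. The mitosis genes Top2a and Mki67 were lower too, with 0.116 and 0.222 in treated and 0.136 and 0.0765 in untreated cells.

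**Figure D4:**
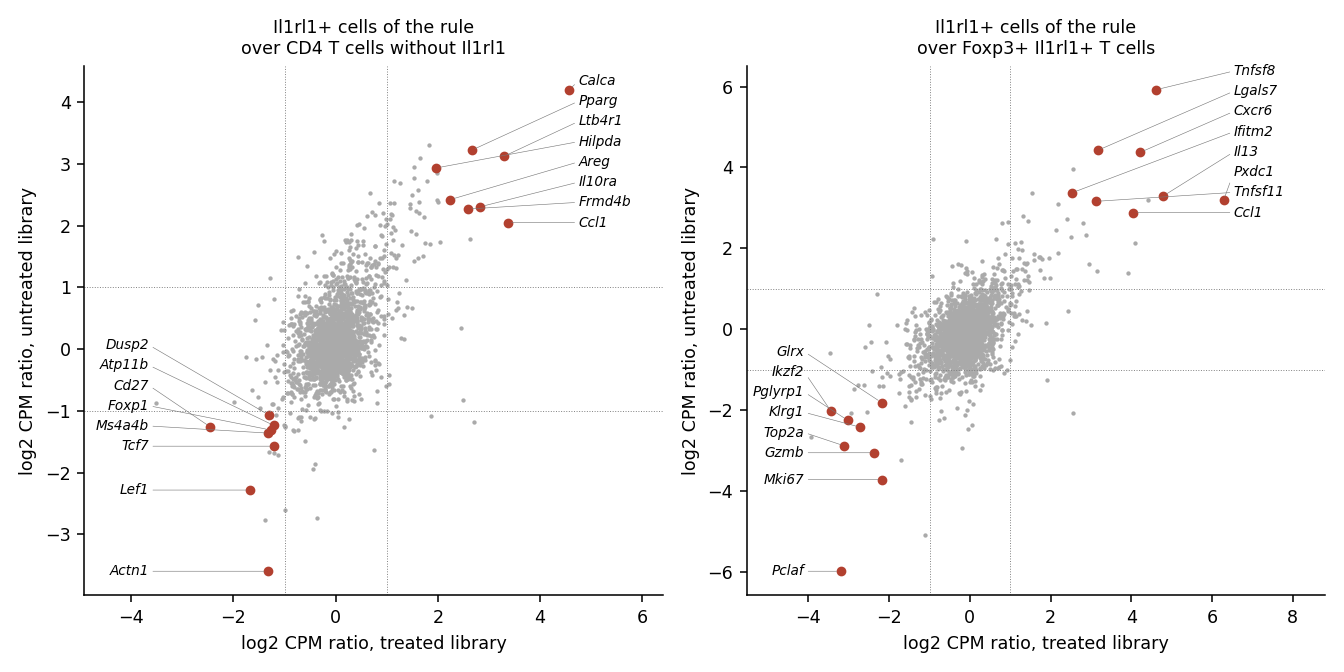
Each point is a gene, with its log2 ratio in ST2-positive cells over other CD4 T cells (left) or over Foxp3-positive T cells with Il1rl1 (right), treated library on the x axis and untreated on the y axis. Dotted lines mark 2-fold, red points are the genes ranked furthest in both libraries, and genes of the rule are left out; Calca is furthest on the left and Tnfsf8 on the right.

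Between the libraries, 195 of 2623 genes (7.43%) were at least 2-fold higher in treated ST2-positive cells and 102 (3.89%) at least 2-fold lower. Part of the higher end came from the 5 cells named above. All 134 treated UMIs of Cpa3 lay in the 4 cells with mast cell genes, against 0 untreated UMIs. Sparc, a matrix protein of stromal cells, had 171 treated UMIs against 0 untreated, and 169 of them lay in the cell of 74410 UMIs. Ccl2, a monocyte chemokine, had 101 treated UMIs against 1 untreated, with 76 in that cell and 25 in the cells with mast cell genes. These 3 genes thus describe 5 cells and not the other 129. Cd63, a granule and endosome protein, had 173 treated against 3 untreated UMIs. Without those cells Cd63 had 38 treated against 3 untreated UMIs, a ratio of 10.8 (3.43 to 54.8). Tpm1, a tropomyosin, had a ratio of 6.29 (3.35 to 13.0), and without them 16 treated against 11 untreated UMIs, a ratio of 1.24 (0.542 to 2.96). Lmna, the nuclear lamin, had 243 treated against 19 untreated UMIs (ratio 9.72, 6.09 to 16.4), and without them 80 treated against 19 untreated UMIs, a ratio of 3.60 (2.16 to 6.29). Without the 5 cells 207 genes were higher and 102 lower, on 666742 UMIs of 129 treated cells.

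The cells with Cd3e and Cd4 hold none of those 5 cells, and in them 221 of 2605 genes (8.48%) were at least 2-fold higher under treatment and 144 (5.53%) at least 2-fold lower. Hexim1, an inhibitor of the elongation kinase P-TEFb, was at 227 CPM (108 UMIs in 48 of 82 cells) in the treated library, against 15.1 CPM (6 UMIs in 5 of 68 cells) in the untreated library, a ratio of 15.1 (6.70 to 42.0). Tob2, an antiproliferative factor, was at 679 CPM (323 UMIs in 68 of 82 cells) in the treated library, against 131 CPM (52 UMIs in 27 of 68 cells) in the untreated library, a ratio of 5.20 (3.87 to 7.11). Aff1, a scaffold of the super elongation complex, had 78 treated against 6 untreated UMIs, a ratio of 10.9 (4.78 to 30.6). Hexim1 and Tob2 were thus found in most treated cells of this set and in a minority of untreated ones. Jmy, a cofactor of p53 and actin nucleator, had 110 treated against 9 untreated UMIs (ratio 10.2, 5.20 to 23.0), and Zc3hav1l 49 treated against 2 untreated UMIs (ratio 20.5, 5.38 to 174).

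Genes that antigen receptor signalling induces were split. Of the 19 on the list, 5 of 16 passing were at least 2-fold higher and 2 lower in treated cells with Cd3e and Cd4. Of all genes in these cells, 8.48% were higher and 5.53% lower. The list had a median log2 ratio of 0.35, beside -0.01 over all genes. Nr4a3, an orphan nuclear receptor, was at 750.3 CPM (357 UMIs in 67 of 82 cells) in the treated library, against 166 CPM (66 UMIs in 29 of 68 cells) in the untreated library, a ratio of 4.53 (3.47 to 5.98). Nr4a2 had a ratio of 4.46 (3.07 to 6.69), Crem, the cyclic AMP response factor, 2.13 (1.81 to 2.52), and Fosl2, an AP-1 subunit, 2.05 (1.68 to 2.53). Nr4a1, the earliest member of its family, was at 0.957 (0.770 to 1.19), and Jun was lower at 0.376 (0.238 to 0.583). The same ratios in other CD4 T cells were 9.82 for Nr4a3, 6.32 for Nr4a2, 4.70 for Crem and 5.66 for Fosl2; these genes were thus higher in both kinds of CD4 cell. Outputs of ERK, the kinase below MEK, were too few to judge: 6 of 20 passed the minimum, with 1 higher, 0 lower and a median of -0.02. Egr1, an immediate ERK target, had a ratio of 1.07 (0.717 to 1.60).

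Several receptors of the tumour necrosis factor family and 2 inhibitory receptors were at least 2-fold lower in treated cells with Cd3e and Cd4. Tnfrsf4, which encodes OX40, was at 513 CPM (244 UMIs in 63 of 82 cells) in the treated library, against 1393 CPM (555 UMIs in 63 of 68 cells) in the untreated library, a ratio of 0.368 (0.315 to 0.429). Tnfrsf18, which encodes GITR, had 166 treated against 391 untreated UMIs (ratio 0.355, 0.295 to 0.427), and Tnfrsf9, 4-1BB, 136 treated against 239 untreated UMIs (ratio 0.476, 0.383 to 0.590). Of 5 passing inhibitory receptors (12 on the list), 2 were at least 2-fold lower and none higher, beside 5.53% and 8.48% of all genes. Lag3 had 15 treated against 53 untreated UMIs. Pdcd1, which encodes PD-1, had 47 treated against 106 untreated UMIs, and Ctla4 85 treated against 137 untreated UMIs. In other CD4 T cells the ratios were 1.39 for Tnfrsf4, 0.846 for Tnfrsf18, 0.956 for Pdcd1 and 1.83 for Ctla4. In Foxp3-positive cells with Il1rl1 they were 1.19 for Tnfrsf4 and 1.02 for Ctla4. The difference between these ratios was not tested, nor was the part of the regulatory and CD8 T cell genes, whose sums were also lower in treated ST2-positive cells. Il2ra, the high-affinity IL-2 receptor chain, was higher instead, with 102 treated against 39 untreated UMIs (ratio 2.19, 1.50 to 3.25) and 3.14 in other CD4 T cells.

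Glycolysis genes were lower as a group. In treated cells with Cd3e and Cd4, 7 of 13 passing genes (of 15) were at least 2-fold lower and none higher, with a median log2 ratio of -1.02. In all ST2-positive cells 3 of 13 were lower and none higher, with a median of -0.56. Tpi1, triose phosphate isomerase, had 43 treated against 175 untreated UMIs (ratio 0.206, 0.144 to 0.289), and Pfkp, a phosphofructokinase, the highest of the list, had a ratio of 1.14 (0.761 to 1.72). Gapdh, named after its values were seen, had 535 treated against 910 untreated UMIs (ratio 0.492, 0.442 to 0.548). In other CD4 T cells 1 of 11 glycolysis genes was lower, with a median of -0.34, and in Foxp3-positive cells with Il1rl1 5 of 13 were lower, with a median of -0.83. Of all genes passing, 8.48% were at least 2-fold higher and 5.53% lower in treated cells with Cd3e and Cd4. In all treated ST2-positive cells the shares were 7.43% higher and 3.89% lower. They were 13.5% higher and 2.53% lower in treated other CD4 T cells, and 8.59% higher and 4.4% lower in treated Foxp3-positive cells with Il1rl1. The inducible heat shock genes Hspa1a and Hspa1b, which dissociation of tissue also induces, were lower too, at 21 treated against 178 untreated UMIs (ratio 0.0988, 0.0597 to 0.156) and 39 treated against 207 untreated UMIs (ratio 0.158, 0.109 to 0.223). The ratio of Hspa1a was 0.112 in other CD4 T cells and 0.134 in Foxp3-positive cells with Il1rl1. The part of tissue dissociation in these ratios was not tested. Type 1 interferon genes were at least 2-fold lower in 2 of 5, with Ifit1 lowest, and ribosomal protein genes in none of 16, with a median of -0.13.

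The type 2 programme itself was uneven under treatment. In cells with Cd3e and Cd4, 4 of 9 passing cytokine and effector genes were at least 2-fold lower and none higher, with a median of -0.86. Of all genes in these cells, 5.53% were lower and 8.48% higher. Penk had 114 treated against 198 untreated UMIs, in 4 cells of each library. Of these, 96 treated and 106 untreated UMIs lay in 1 cell each. Il13 had 52 treated against 121 untreated UMIs (ratio 0.360, 0.255 to 0.502), and 36 treated against 65 untreated UMIs without the highest cell of each library. Il5 had 21 treated against 57 untreated UMIs (ratio 0.308, 0.178 to 0.517), while 25 of 82 treated (30.5%) and 24 of 68 untreated cells (35.3%) had any of Il4, Il5 and Il13. Il4 had 15 treated against 10 untreated UMIs (ratio 1.26, 0.528 to 3.13). The lower Il13 and Il5 levels rested on few untreated cells: without the 3 highest cells of each library, Il13 had 24 treated against 24 untreated UMIs and Il5 had 9 treated against 14 untreated UMIs. Areg went the other way, at 424 treated against 192 untreated UMIs (ratio 1.85, 1.56 to 2.20), and at 2.81 in other CD4 T cells. In cells with Cd3e and Cd4, 45.1% of treated and 39.7% of untreated cells had Areg. The 3 highest treated cells held 94, 82 and 51 of the Areg UMIs. Without the highest cell of each library the Areg ratio was 1.75 (1.44 to 2.13). Type 2 transcription factors were at least 2-fold higher in none of 18 and lower in 1, Id2, an inhibitor of E proteins, with 215 treated against 361 untreated UMIs (ratio 0.499, 0.419 to 0.592). Gata3 had a ratio of 0.634 (0.529 to 0.758) and Rora 1.20 (1.05 to 1.38). Csf2, Il4i1 (an amino acid oxidase) and Bex1 were far lower in treated cells. Of the untreated UMIs, 138 of 145 for Csf2, 66 of 66 for Il4i1 and 31 of 52 for Bex1 came from 1 cell each. Without the highest cell of each library, Csf2 had 5 treated against 7 untreated UMIs in cells with Cd3e and Cd4 (ratio 0.598, 0.150 to 2.19). In all ST2-positive cells Csf2 then had 16 treated against 7 untreated UMIs. Bex1 stayed lower in cells with Cd3e and Cd4, at 1 treated against 21 untreated UMIs (ratio 0.0399, 0.000964 to 0.248).

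Other lists were counted in the same way at 2-fold between treated and untreated cells with Cd3e and Cd4. Of all genes there, 8.48% were higher and 5.53% lower. NF-kB feedback genes had 0 higher and 0 lower of 16 passing genes, median -0.03, and T cell receptor genes 0 higher and 0 lower of 13 passing genes, median -0.36. Targets of STAT5, the factor below the IL-2 and IL-7 receptors, had 2 higher and 0 lower of 7 passing genes, median 0.53, with Socs3, a cytokine signalling suppressor, highest at 2.34 (1.38 to 4.12). Tissue residency genes had 3 higher and 0 lower of 13 passing genes, median 0.37, and recirculation genes 1 higher and 1 lower of 8 passing genes, median -0.04. Klf2, which drives exit from tissue, had a ratio of 0.307 (0.219 to 0.424), and S1pr1, the exit receptor, 2.64 (1.56 to 4.69). Type 2 receptors had 2 higher and 5 lower of 15 passing genes, median 0.08. The highest of these 15 was Il1rl1, whose level describes the choice because the rule uses it. Regulatory T cell genes had 1 higher and 2 lower of 7 passing genes, median -0.73. CD8 T cell genes had 0 higher and 3 lower of 4 passing genes, median -1.45, with Ccl5, a chemokine of effector cells, lowest, and dendritic cell genes 0 higher and 2 lower of 5 passing genes, median -0.66. Il7r had a ratio of 0.794 (0.656 to 0.959) and Icos, a costimulatory receptor, 1.38 (1.00 to 1.91). Leaving ribosomal and mitochondrial genes out of the totals shifted every ratio by 0.0014 on the log2 scale here and by -0.02 in all ST2-positive cells.

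**Figure D5:**
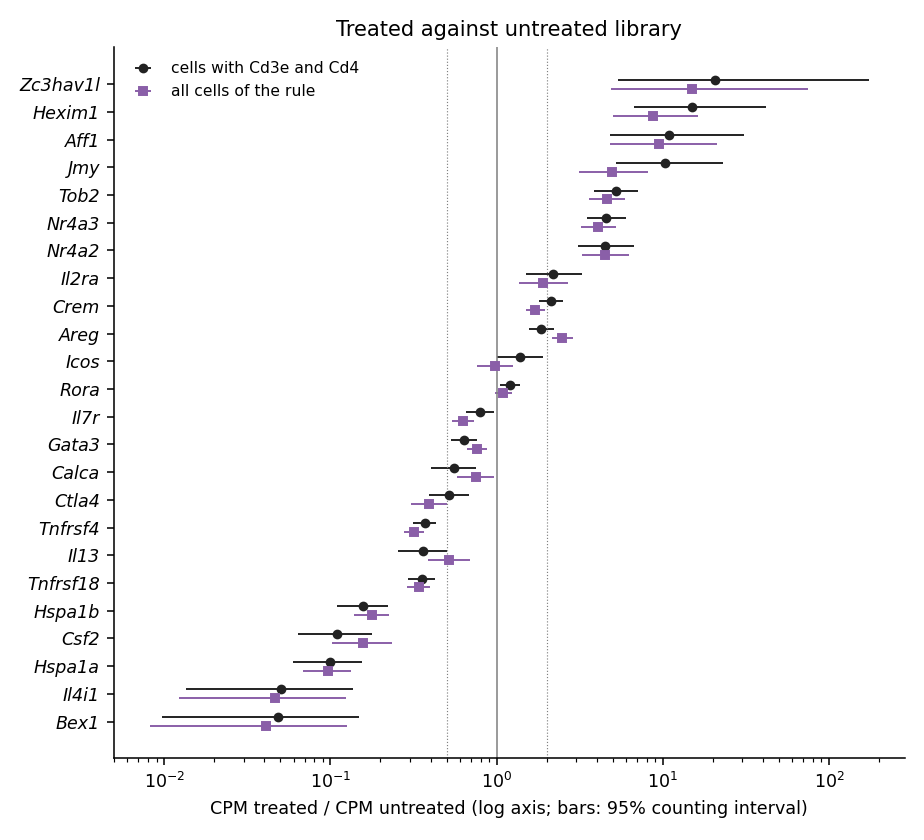
Ratio of CPM in treated over untreated ST2-positive cells on a log axis, for cells with Cd3e and Cd4 (circles) and all ST2-positive cells (squares), with 95% counting intervals and dotted lines at 2-fold. Hexim1 at 15.1 and Nr4a3 at 4.53 lie right of 2-fold in the cells with Cd3e and Cd4, and Tnfrsf4 at 0.368 and Tnfrsf18 at 0.355 lie left of 0.5.

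The Cd3e-negative cells differed from those with Cd3e and Cd4 in few genes in both libraries: 14 of 2145 (0.653%) were at least 2-fold higher and 28 (1.31%) at least 2-fold lower. Hspa1b was at 214 CPM against 82.0 CPM in cells with Cd3e and Cd4 of the treated library, a ratio of 2.61 (1.59 to 4.26), and at 1781 CPM against 519.6 CPM in those of the untreated library, a ratio of 3.43 (2.68 to 4.36). In the treated library 20 of the 33 Hspa1b UMIs of the Cd3e-negative cells lay in 1 cell. Without the highest cell of each set the Hspa1b ratio was 1.25 (0.604 to 2.46) in treated and 2.94 (2.16 to 3.97) in untreated cells, and without the 5 cells it was 1.20 (0.451 to 2.70) in treated cells, so the treated difference rested on single cells. Cd74, the class II invariant chain, was at 123 CPM against 828 CPM in cells with Cd3e and Cd4 of the treated library (ratio 0.149, 0.0887 to 0.236) and at 441 CPM against 1310.4 CPM in those of the untreated library (ratio 0.337, 0.218 to 0.499). Of the Cd74 UMIs of cells with Cd3e and Cd4, 213 of 394 treated and 245 of 522 untreated ones lay in 1 cell of each library. Without the highest cell of each set the Cd74 ratios were 0.119 (0.0474 to 0.251) in treated and 0.146 (0.0532 to 0.323) in untreated cells, and without the 5 cells the treated one was 0.304 (0.178 to 0.487). In cells with any of Il1rl1, Hdc and Gata3 the log2 ratio of Cd74 was -0.19 in treated cells and reversed to 0.51 in untreated cells. Il13 had 1 UMI in treated and 0 in untreated Cd3e-negative cells, against 52 in treated and 121 in untreated cells with Cd3e and Cd4. Penk had 0 UMIs in Cd3e-negative cells of both libraries, against 114 in treated and 198 in untreated cells with Cd3e and Cd4. With 0 of 58958 UMIs, the interval for Il13 in untreated Cd3e-negative cells reaches up to 62.6 CPM, against 304 CPM in untreated cells with Cd3e and Cd4. The higher genes rested on few cells: without the 5 cells or the highest cell of each library Hspe1, Plin2, Mrps18c and Tmco1 were lower, not higher, in treated Cd3e-negative cells.

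In the 24 treated Cd3e-negative cells, against the 18 untreated ones, 641 of 2844 genes (22.5%) were at least 2-fold higher and 544 (19.1%) at least 2-fold lower, on 154052 UMIs in treated and 58958 in untreated cells. T cell receptor genes were at least 2-fold lower in 10 of 12 passing genes, with a median log2 ratio of -1.70, beside 0.03 over all genes. The highest genes were Sparc, Cd63, Cpa3, S100a4 and Lmna. As above, nearly all Sparc and Cpa3 UMIs lay in 5 of these 24 treated cells, and S100a4 had 388 UMIs in the cell of 74410 UMIs. Without the 5 cells, on 71435 UMIs in 19 treated cells, 468 of 2634 genes (17.8%) were at least 2-fold higher and 398 (15.1%) lower. T cell receptor genes were then at least 2-fold lower in 3 of 12 passing genes, with a median of -0.60.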

How the data were processed

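Single-cell 3' RNA libraries of T cells (Chromium v3) were analysed, 1 per group. Per the submitters' processing notes, Cell Ranger and Seurat made the deposited table, with no version given in the sources used here; the notes name GRCh38, although the symbols are those of mouse. The authors deposited natural log values of 1 plus UMIs per 10000 for 15121 genes and 17390 cells. Each cell's smallest value is 1 UMI, and all 38204229 values above 0 came out whole within 0.01. The analysis plan foresaw counts, and these recovered UMIs were used. Totals were 58318786 UMIs in 8078 treated and 95349992 in 9312 untreated cells.

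UMIs were summed over a set of cells per library and scaled to CPM. Ratios have exact conditional binomial intervals and shares Clopper-Pearson intervals, both at 95% and for counting error only. Genes counted had a mean of at least 50 CPM over both sets and UMIs in both libraries (13998 genes; 1123 genes were at 0 in 1 library). At least 2-fold is counted as higher or lower. A fold against 0 used a floor of 3 UMIs. The rule was read as Il1rl1 together with Hdc or Gata3. The comparison sets also lacked Cd8b1, C1qa and Lyz2.

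The members and the gene lists were chosen with earlier results of these data known. Named genes were those with the interval bound furthest from 1 (10 each way for all cells, 5 for each subset, 8 against other sets), the highest and lowest of each list, and 67 genes always named. Ribosomal, mitochondrial, receptor segment, predicted and sex-linked genes were not ranked. Scrublet marked 0 treated and 4 untreated cells (0.043%), did not work as a caller, and no doublets were removed. The ratio step was run on simulated Poisson counts, which hold no spread between cells. That run does not show how the intervals behave where 1 cell holds many UMIs. Versions were scanpy 1.11.5, scipy 1.17.1, matplotlib 3.10.9 and pandas 2.3.3, on numpy 2.4.6 and Python 3.11.15.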

Additional observations from a re-analysis of the deposited data

Results flagged for a closer look

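Ctla4, an inhibitory receptor, differed between the libraries in opposite directions in ST2-positive cells and in other CD4 T cells. Treated over untreated its log2 ratio was -1.35 in ST2-positive cells, with 101 UMIs in 27 of 134 treated cells against 196 UMIs in 39 of 112 untreated cells. In other CD4 T cells it was 0.87, with 679 UMIs in 153 of 344 treated cells against 682 UMIs in 204 of 689 untreated cells. In the ST2-positive cells with Cd3e and Cd4 it was -0.95, and in Foxp3-positive cells with Il1rl1 0.02. With any of Il1rl1, Hdc and Gata3 as the rule, the log2 ratio of the chosen cells was 0.030, so the opposite direction does not hold under that reading. Cells without Il1rl1 are then chosen too, and some of them are also in the set of other CD4 T cells. The difference between ST2-positive and other CD4 T cells was not tested, since each group is 1 library.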

How the results depend on the processing

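Named below are the shares and counts that moved and the values that changed sign. Many other values moved beyond their counting spread and are not named. The results that moved and stayed numbered 70 and 197 with 2 or more Il1rl1 UMIs, and 42 and 223 without cells holding Ikzf2. They numbered 36 and 221 with the mean CPM of each cell, and 35 and 212 without each gene's highest cell. With any of Il1rl1, Hdc and Gata3 as the rule, 91 results moved, 10 changed sign and 99 stayed. The cells were then 7.77% of the treated and 6.93% of the untreated library. Of these, 38.9% of treated and 42.0% of untreated ones had Cd3e and Cd4, and 29.1% of treated ones lacked Cd3e. Then 55 genes were lower in treated cells (69 in those with Cd3e and Cd4), and 164 genes were higher and 151 lower in Cd3e-negative cells of both libraries. Treated over untreated log2 ratios turned to 0.030 for Ctla4 and the median of inhibitory receptors, 0.29 for the median of CD8 genes (0.18 with Cd3e and Cd4), -0.062 for Sparc, -0.40 for Cd63, -1.73 for Ccl2, -0.25 for Tpm1 and 0.34 for Ccl5, and that of Cd74 in untreated Cd3e-negative cells to 0.51. A rule of 2 or more Il1rl1 UMIs kept 1.29% of treated and 0.483% of untreated cells, with 38 genes higher and 47 lower in Cd3e-negative cells. Without cells holding other lineage genes 1.35% of treated cells remained, with 22 higher and 14 lower. Tpm1 was then at -0.37, and in treated Cd3e-negative cells Plin2 was at -0.44, Mrps18c at -0.023 and Tmco1 at -1.14. Penk came out at 0.82 there only through the floor of 3 UMIs, since Cd3e-negative cells held no Penk UMI. Without cells holding Ikzf2, 1.23% of treated and 0.913% of untreated cells remained, with 26 genes higher in Cd3e-negative cells. Thinned to 2000 UMIs, the rule held for 1.30% of treated and 0.658% of untreated cells; 21.4% of treated and 25.4% of untreated ones had Cd3e and Cd4, and 43.9% of treated and 42.4% of untreated ones lacked Cd3e.

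A minimum of 20 CPM gave 475 higher and 265 lower genes in treated cells (492 and 418 with Cd3e and Cd4) and 105 higher and 80 lower in Cd3e-negative cells; a minimum of 200 CPM gave 34 and 26 (43 and 29) and 1 and 3. Totals without ribosomal and mitochondrial genes raise every CPM, so that 3580 genes passed the minimum in place of 2623 (3510 in place of 2605 with Cd3e and Cd4); 175 were lower (218 with Cd3e and Cd4), and 34 higher and 44 lower in Cd3e-negative cells. With the mean CPM of each cell, 32 genes were higher and 17 lower in Cd3e-negative cells, and Hspe1 (-0.14), Plin2 (-0.31) and Mrps18c (-0.22) reversed in the treated library. With each gene's highest cell left out, 0 were higher and 106 lower there, and 23 were lower against other CD4 T cells; Csf2 turned to 0.80, and in Cd3e-negative cells Hspe1 to -0.93 treated and -0.14 untreated, Plin2 to -1.37, Mrps18c to -1.07, Tmco1 to -1.28 and Serpinb6a to -0.11 in treated cells. Without the 5 cells of mast cell genes or very high UMIs, chosen after seeing the data, Hspe1 (-0.11), Plin2 (-0.72), Mrps18c (-0.17) and Tmco1 (-1.35) reversed in treated Cd3e-negative cells. The difference of mean deposited values, also added then, put Csf2 at 0.015. The cause of these reversals was not tested beyond what each setting leaves out.

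A limit of 10% mitochondrial UMIs and a median ratio set to 1 left every value run under them within its counting spread and every count within 1.5 times. No paired analysis was possible because each group is 1 library, and no replicate could be left out. Depth limits the Cd3e-negative cells most: 18 untreated cells hold 58958 UMIs.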
